A study of Mus musculus with 6 samples.

Results

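The genes described here are 10 of the 17739 gene symbols in an RNA-seq table of mouse mammary epithelium. They were taken by name: the cytokine gene Lif, the receptor genes Osmr and Il6st, the transcription factor gene Stat3, its targets Socs3 and Cebpd, the early involution gene Igfbp5, the survival gene Bcl2l1 and the lysosomal protease genes Ctsb and Ctsd. RNA came from epithelial organoids, which are clumps of mammary epithelium freed by collagenase and pronase from the glands of FVB mice on lactation day 1. The groups were wild-type mice (n = 3) and mice labelled Nmi-/- (n = 3), with 1 library per mouse, and the series title calls the knockout conditional. The labels used here give neither the Cre driver nor the deleted exons nor the age of the mice. The study asked how loss of Nmi, whose product binds STAT and Myc proteins, contributes to excess growth of the gland in puberty and lactation.

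Cytokines of the interleukin-6 family, LIF and oncostatin M among them, signal through receptors that share the chain gp130, encoded by Il6st. The receptors activate JAK kinases, which phosphorylate STAT3, and STAT3 then switches on target genes, including Socs3, whose product shuts the receptors off again. In the mammary gland STAT5 drives milk synthesis during lactation, and STAT3 becomes active when milk removal stops, where LIF and then oncostatin M drive it. STAT3 is required for the first phase of involution, in which alveolar cells die and cathepsins that leak from lysosomes take part in their death. The samples here precede weaning, so they show these genes in the lactating gland, before involution begins. On GRCm38, in GENCODE M21, all 10 are protein-coding genes.

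The DNA ahead of the RefSeq start of 2 of these genes holds short motifs tied to the pathways named above. STAT proteins bind sites of the form TTCNNNGAA, and the factors that switch on lysosomal genes bind sites with the core CACGTG. Both motifs read the same on either strand, and neither contains the other. Windows from 250 bases before to 50 bases after the gene start, from RefSeq on GRCm38.p6, were given for 8 of the 10 genes, all but Cebpd and Ctsb. Of these 8 genes, 1 held TTCNNNGAA, namely Socs3 (12.5%), against 9.55% of all gene symbols with a window. Of 20 listed STAT3 targets, 18 had a window and 2 of these held the motif (11.1%). Of 20 listed early involution genes, 16 had a window and 0 held it. The Socs3 match lies 154 to 146 bases before the RefSeq start used for the window. It is shown within chr11:117969452-117969616 on the minus strand, a stretch of 165 bases that lies within Socs3 as GENCODE M21 annotates it (to 117970047) but outside annotated exons, with the match in capitals.
Socs3: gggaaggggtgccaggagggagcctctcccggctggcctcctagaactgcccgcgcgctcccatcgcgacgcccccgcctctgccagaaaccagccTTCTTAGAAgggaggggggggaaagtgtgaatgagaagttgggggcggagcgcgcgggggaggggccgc

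Ctsd was the gene among the 8 with CACGTG, which it held at 2 places, and 8.09% of all gene symbols with a window held it. Of 12 lysosomal protease genes listed for comparison, 10 had a window and 5 of these held CACGTG. The sites are shown with up to 12 bases on each side and the core in capitals, because they let the flanks of the Ctsd sites be compared with those of other cathepsin genes and of legumain (Lgmn). The Ctsd sites lie at chr7:142387908-142387937 and chr7:142388055-142388077 (minus strand). In GENCODE M21 Ctsd begins at chr7:142388038, so the nearer site lies within the gene as annotated there, ahead of the RefSeq start. The others are at chr2:164833749-164833778 for Ctsa and chr19:4855074-4855103 for Ctsf, both on the plus strand, and at chr13:64370739-64370768 for Ctsl and chr12:102439124-102439153 for Lgmn, both on the minus strand.
Ctsd, nearer site: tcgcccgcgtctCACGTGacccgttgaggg
Ctsd, farther site: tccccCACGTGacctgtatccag
Ctsa, the first of 2 sites: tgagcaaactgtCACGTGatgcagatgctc
Ctsf: caccccgtggtcCACGTGcctcgcgtaaat
Ctsl: ggcgttagaagcCACGTGctgatctaaatt
Lgmn: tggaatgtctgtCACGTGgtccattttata
These matches describe the letters of the reference sequence, and factor binding was not measured.

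The values are FPKM, fragments scaled to gene length and to library size, as the authors deposited them. The make-up of the libraries bears on every value below. Milk protein genes (17 listed) held from 48.8% of the FPKM sum in wild-type replicate 1 to 76.0% in knockout replicate 3, with the other 4 libraries between 61.8% and 70.3%. Knockout replicate 3 had the lowest value of the 6 libraries for 65.8% of the 9767 genes tested, and wild-type replicate 1 had the highest for 63.5%. FPKM is a share of the library, so more milk transcripts leave less for the rest, and fewer cells of a type and less RNA per cell cannot be told apart in such bulk samples. Values were therefore also rescaled by the median of ratios, which sets the typical gene equal between libraries and moved the median log2 fold change over the genes tested from -0.21 to 0.01. Luminal epithelial markers (Epcam, Krt8, Krt18, Krt19 and Cdh1) were present in all libraries, with a summed level from 834 FPKM in knockout replicate 3 to 5022 FPKM in wild-type replicate 1. The fold change was below 0 for 5 of these 5, with a median of -0.80 as deposited and -0.53 after rescaling, and 0 passed an adjusted p of 0.05 (limma), so their level moved with the same libraries as many values below, and its part in them was not tested. Markers of T cells, B cells and adipocytes each summed to 0.300 FPKM or less. Of the milk genes, Csn2 (beta-casein) was the most abundant, with 88363 ± 35654 FPKM in wild type against 114974 ± 25786 FPKM in the knockout. Btn1a1 and Plin2, of the milk fat globule, had log2 fold changes of 0.58 and -0.73 (adjusted p = 0.768 for both, limma). Nmi itself had 2.32 to 4.60 FPKM among wild-type mice and 0.188 to 0.564 FPKM among knockout mice. Its log2 fold change was -1.54 (unadjusted p = 3.81e-05, adjusted p = 0.372, limma), so even the targeted gene did not pass an adjusted p of 0.05.

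Against that background, none of the 10 genes differed between the genotypes beyond the spread between mice when the 6 libraries were weighted equally. All 10 passed the filter for testing (3 or more libraries at 1 FPKM or above). With limma and Benjamini-Hochberg adjustment over all genes tested, 0 of the 10 passed an adjusted p of 0.05, where the share over all genes was 0%. At an unadjusted p under 0.05, 0 of the 10 passed as well, against 1.33% of all genes (0.184% higher and 1.15% lower in the knockout). The wild-type and knockout values overlapped for each of the 10, and groups without overlap were found for 4.61% of all genes (0.778% higher and 3.83% lower). As deposited, 8 of the 10 had a log2 fold change below 0, as did 81.7% of all genes. The median over the 10 was -0.12, beside -0.21 over all genes, and after rescaling it was 0.15, beside 0.01. As deposited, the median over the 10 was -0.34 without knockout replicate 2 and 0.0091 without knockout replicate 3. Leaving out wild-type replicate 1, 2 or 3 gave -0.07, -0.26 and -0.21. The exact permutation test of a single gene, two-sided, can give no p below 0.1 with 3 against 3 mice, and the smallest among the 10 was p = 0.3, for Socs3. These calls were not the same under every weighting of the libraries. With limma's library quality weights, whose default estimate stopped before it converged, wild-type replicate 2 and knockout replicate 1 held 40.8% and 58.1% of the total weight. That fit called 79.2% of all genes and 8 of the 10 (all but Stat3 and Cebpd), with Socs3, Igfbp5 and Ctsd in the opposite direction to the equally weighted fit, at log2 fold changes of -0.50, 0.76 and 0.15. Weights estimated gene by gene, a method chosen after the first outcome was seen, called 0 of the 10.

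**Figure D1:**
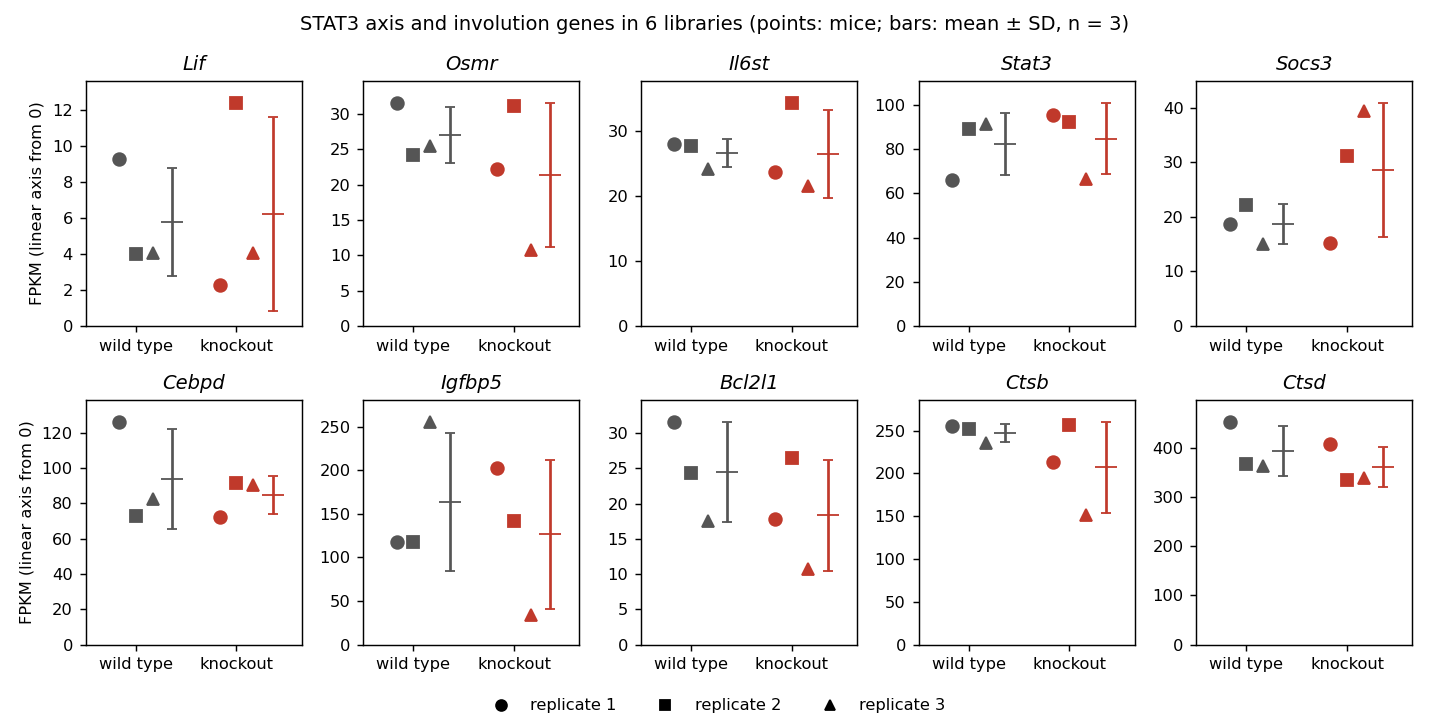
FPKM of each of the 10 genes (vertical axes, linear from 0) in the 3 wild-type mice (grey) and the 3 knockout mice (red), with mean ± SD beside the points and marker shapes giving the replicate number. In every panel the points of both genotypes overlap, and knockout replicate 3 (red triangle) is the lowest point for Osmr, Il6st, Igfbp5, Bcl2l1 and Ctsb and the highest for Socs3.

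The 10 genes spanned a wide range of levels. Over the 6 libraries Ctsd came first with 379 ± 45.2 FPKM (SD over 6 libraries, both genotypes), then Ctsb with 227 ± 40.8 FPKM and Igfbp5 with 145 ± 76.8 FPKM. Cebpd had 89.2 ± 19.9 FPKM and Stat3 83.5 ± 13.6 FPKM, so Stat3 lay above 97.4% of the genes tested. A lower tier held Il6st (26.6 ± 4.53 FPKM), Osmr (24.2 ± 7.57 FPKM), Socs3 (23.6 ± 9.74 FPKM) and Bcl2l1 (21.4 ± 7.48 FPKM), with Lif last at 6.01 ± 3.92 FPKM. Between neighbours in this order, Ctsd and Ctsb did not overlap over the 6 libraries, and neither did Stat3 and Il6st. The other 7 neighbouring pairs had overlapping ranges, although Bcl2l1 exceeded Lif within each of the 6 libraries. Cebpd and Stat3 changed places from library to library, as did Socs3 and Bcl2l1.

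Lif (chr11:4257557-4272514, plus strand) encodes the cytokine that activates STAT3 at the onset of involution. Its level was 9.26, 4.02 and 4.05 FPKM in wild-type mice (replicates 1 to 3) and 2.26, 12.4 and 4.06 FPKM in knockout mice (replicates 1 to 3). The high libraries were thus 1 of each genotype, and the knockout held both the highest and the lowest value. Knockout over wild type, the log2 difference was -0.08 (SE 0.47, 95% interval -1.10 to 0.94, adjusted p = 0.941 with limma), and it turned positive after rescaling, at 0.15. It was also positive when wild-type replicate 1 (0.26), knockout replicate 1 (0.37) or knockout replicate 3 (0.048) was left out, and -0.65 when knockout replicate 2 was. Both high libraries were also high for basal and myoepithelial markers: the 8 listed genes summed to 1311 FPKM in knockout replicate 2, 978 FPKM in wild-type replicate 1 and 791 FPKM in wild-type replicate 2, and to 360 to 458 FPKM in the other 3. Of the basal markers, Oxtr and Trp63 did not fully follow this sum. Wild-type replicates 1 and 2 and knockout replicate 2 also led for the luminal markers, with 3164 to 5022 FPKM against 834 to 2399 FPKM. They led as well for 5 listed endothelial markers, with 75.1 to 91.7 FPKM against 42.7 to 53.3 FPKM. The trait was thus not particular to basal cells, and the part of any of these cells in the Lif values was not tested.

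Of 8 listed cytokines of the family, Lif included, 4 were tested and 0 passed in either direction, and the median log2 fold change of those 4 was -0.28. Il6, which encodes interleukin-6, was the most abundant, with 26.0, 20.5 and 3.09 FPKM among wild-type mice and 6.17, 17.3 and 6.18 FPKM among knockout mice. Its high libraries were the same 3 that led for basal, luminal and endothelial markers, and the part of these cells was not tested. Clcf1, a further gp130 cytokine gene, had 5.14 ± 2.63 FPKM among wild-type mice and 3.05 ± 1.58 FPKM among knockout mice (mean ± SD over 3 mice each; adjusted p = 0.768, limma). Osm, which encodes oncostatin M, did not exceed 0.107 FPKM in any library and was listed at 0 in some. A low entry in this table can be a failed estimate, since the household gene Gapdh was listed between 0 and 0.0769 FPKM.

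Osmr (chr15:6813577-6874969, minus strand) encodes the chain that pairs with gp130 to bind oncostatin M. It had 31.5, 24.2 and 25.4 FPKM in wild-type mice (replicates 1 to 3) and 22.2, 31.1 and 10.8 FPKM in knockout mice (replicates 1 to 3). Knockout replicate 3 stood far below the other 5 libraries, which lay within 22.2 to 31.5 FPKM. As a log2 difference, knockout minus wild type was -0.43 (SE 0.35, 95% interval -1.21 to 0.34, adjusted p = 0.768 with limma) and became -0.17 after rescaling. Without knockout replicate 3 it was -0.03, and without knockout replicate 2 it was -0.75, with groups that no longer overlapped, as for 32.2% of all genes in that comparison.

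Il6st (chr13:112464070-112510086, plus strand), the gene of the shared gp130 chain, was among the steadiest of the set. The values were 28.1, 27.8 and 24.2 FPKM among wild-type mice and 23.7, 34.3 and 21.6 FPKM among knockout mice, so the knockout range enclosed the wild-type range. Between genotypes the log2 fold change was -0.03 (SE 0.27, 95% interval -0.62 to 0.55, adjusted p = 0.957 with limma) as deposited and 0.23 after rescaling. Leaving out knockout replicate 3 gave 0.094 and leaving out knockout replicate 2 gave -0.23. Osmr and Il6st were close in level, with a ratio of 1.01 ± 0.131 in wild type and 0.782 ± 0.244 in the knockout (mean ± SD over 3 mice each). A scaling factor shared by all genes of a library cancels in this ratio. The ratio was 0.50 in knockout replicate 3, the library with the highest milk share, against 0.869 to 1.12 in the other 5 libraries. Lifr, the gene of the LIF-binding chain, had 4.48 ± 0.868 FPKM and 4.35 ± 0.600 FPKM. Osmr thus exceeded Lifr in each library, by 2.82 to 7.37 times. Of 7 listed receptor genes of the family, 5 were tested and 0 passed in either direction, with a median log2 fold change of -0.03. Il6ra, which binds interleukin-6, had 12.4 ± 4.63 FPKM among wild-type mice and 12.9 ± 1.17 FPKM among knockout mice, and Il11ra1, which binds interleukin-11, had 3.28 ± 0.263 FPKM and 3.21 ± 0.446 FPKM.

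Stat3 (chr11:100885098-100939540, minus strand) had nearly the same mean level in both genotypes. Wild-type replicates 1, 2 and 3 had 66.1, 89.3 and 91.4 FPKM, and knockout replicates 1, 2 and 3 had 95.6, 92.4 and 66.4 FPKM. Each genotype held 1 low library, and these were the libraries with the lowest and the highest milk share, whereas the other 4 lay within 89.3 to 95.6 FPKM. Means were 82.3 ± 14.1 FPKM and 84.8 ± 16.0 FPKM (mean ± SD over 3 mice each). The log2 fold change was 0.04 (SE 0.29, adjusted p = 0.954 with limma), and its 95% confidence interval of -0.60 to 0.68 leaves room for changes of that size in either direction. After rescaling it was 0.31 (interval -0.31 to 0.93), with wild-type replicate 1 as the low library at 49.6 rescaled FPKM and the other 5 between 81.4 and 99.8. Leaving out wild-type replicate 1, knockout replicate 1 or knockout replicate 2 gave -0.11, -0.055 and -0.03. Leaving out knockout replicate 3 gave 0.21, when the 2 remaining knockout values exceeded all wild-type values, and 6.79% of all genes then had groups without overlap. These are transcript levels, and the phosphorylation that activates the STAT3 protein was not measured.

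Among 7 listed JAK kinase and STAT3 cofactor genes, Stat3 included, all were tested and 0 passed in either direction. Jak1, the main kinase of gp130 receptors, had 25.4 ± 4.09 FPKM among wild-type mice and 24.8 ± 3.73 FPKM among knockout mice (mean ± SD over 3 mice each). Ptpn11, the phosphatase SHP2 recruited by gp130, had 12.7 ± 1.99 FPKM and 9.28 ± 3.77 FPKM (adjusted p = 0.768, limma), and Tyk2 had 3.48 ± 0.778 FPKM and 2.60 ± 0.866 FPKM. Of 4 listed genes of the STAT5 axis, 4 were tested, 0 passed and 4 had a fold change above 0, whereas 81.7% of all genes lay below 0. The median of these 4 was 0.16, beside -0.21 over all genes, and after rescaling it was 0.40, beside 0.01. Stat5a, which encodes the STAT of milk synthesis, had 11.7 ± 5.01 FPKM and 18.1 ± 6.01 FPKM (adjusted p = 0.768, limma). Elf5, a driver of alveolar development, had 168 ± 7.77 FPKM and 195 ± 48.7 FPKM (adjusted p = 0.807, limma). Stat3 exceeded Stat5a within each library. The ratio was 10.7, 7.01 and 5.70 in wild-type mice (replicates 1 to 3) and 4.04, 7.88 and 3.54 in knockout mice (replicates 1 to 3), so the genotypes overlapped (exact permutation p = 0.3, two-sided). Stat3 and Stat5a overlap at annotated exons on opposite strands, and strand use in the counting is not given in the sources used here, so reads from the shared stretch cannot be told apart.

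**Figure D2:**
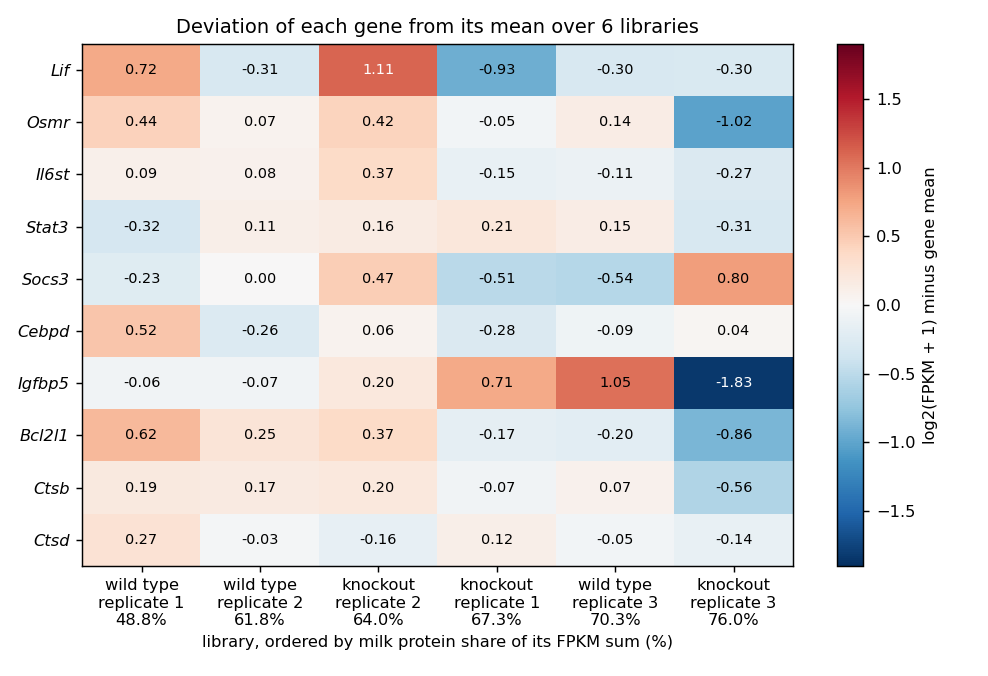
Deviation of each gene from its own mean over the 6 libraries, as log2(FPKM + 1), with libraries ordered from the lowest to the highest milk protein share of the FPKM sum (percent under each column). Bcl2l1 runs from 0.62 in wild-type replicate 1 to -0.86 in knockout replicate 3, Stat3 is low at both ends, Lif is high in wild-type replicate 1 and knockout replicate 2, and Igfbp5 is high in wild-type replicate 3 and knockout replicate 1.

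Socs3 (chr11:117966079-117970047, minus strand), the feedback inhibitor and a standard readout of STAT3 activity, had the smallest p of the 10 genes. Wild-type replicates 1, 2 and 3 had 18.8, 22.3 and 15.0 FPKM, and knockout replicates 1, 2 and 3 had 15.3, 31.2 and 39.4 FPKM. Both of the higher knockout libraries exceeded all wild-type libraries, but knockout replicate 1 lay within the wild-type range. The means were 18.7 ± 3.64 FPKM and 28.6 ± 12.2 FPKM (mean ± SD over 3 mice each). Knockout over wild type, the log2 difference was 0.51 (SE 0.34, 95% interval -0.25 to 1.27, adjusted p = 0.768 with limma) and 0.77 after rescaling. Without knockout replicate 1 it was 0.89 and the groups no longer overlapped (as for 11.8% of all genes then), at an unadjusted p = 0.0216 and an adjusted p = 0.845 (limma). Without knockout replicate 3 it was 0.24.

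Socs3 is also switched on by tissue dissociation and is expressed in macrophages, and listed genes of both kinds were compared with it. The 15 listed immediate early and heat shock genes of dissociation summed to 1869 FPKM in knockout replicate 3 and to 1092 to 1347 FPKM in the other 5 libraries, and 0 of the 15 passed in either direction at an adjusted p. Knockout replicate 2, the other library high for Socs3, was not high for this sum, at 1196 FPKM. It still exceeded all wild-type libraries for Jun (121 FPKM), Junb (111 FPKM) and Zfp36 (82.8 FPKM), though not for the rest of the list. Of the 15, 13 had a fold change above 0 and 2 below, whereas 81.7% of all genes lay below 0. The list median was 0.35, beside -0.21 over all genes, and after rescaling it was 0.62, beside 0.01. Groups did not overlap for 2 of the 15, Jun and Zfp36, both higher in the knockout, as for 0.778% of all genes. Egr1, an immediate early gene, had 4.57, 16.7 and 9.24 FPKM among wild-type mice and 17.1, 13.6 and 34.9 FPKM among knockout mice (log2 fold change 1.08, unadjusted p = 0.0305, adjusted p = 0.768, limma). Ier3, another early response gene, pointed the other way, with 304.9, 123 and 126 FPKM in the wild-type libraries and 92.0, 136 and 58.0 FPKM in the knockout libraries (log2 fold change -0.90, adjusted p = 0.768, limma). Jund, the most abundant of the list, had 197 ± 33.7 FPKM and 178 ± 9.38 FPKM (mean ± SD over 3 mice each). The 9 listed macrophage markers summed to 23.9 and 26.5 FPKM in knockout replicates 2 and 3 and to 11.4 to 17.0 FPKM in the other 4. Its members did not move alike. Lyz2 had 8.75 and 8.56 FPKM in knockout replicates 2 and 3 and 2.81 to 5.24 FPKM elsewhere, and C1qa, C1qb, C1qc and Csf1r were also highest in these 2 libraries. Cd68 went the other way, with 6.92, 6.84 and 6.94 FPKM in the wild-type libraries and 5.03, 5.64 and 3.35 FPKM in the knockout libraries, groups that did not overlap (log2 fold change -0.50, adjusted p = 0.768, limma). Of the defining markers, Csf1r reached 0.951 FPKM at most and Adgre1 0.210 FPKM, Mrc1 stayed at 0.102 FPKM or less, and Cd163 was listed at 0 in 2 libraries. The part of dissociation or of macrophages in the Socs3 values was not tested. Relative to Stat3 in the same library, Socs3 stood at 0.233 ± 0.0619 in wild type and 0.363 ± 0.218 in the knockout (exact permutation p = 0.5, two-sided).

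The profile of Socs3 over the 6 libraries was most like those of Mfap4, H2-Ab1 and Slc26a9. Likeness was the root mean square difference of log2(FPKM + 1) after centring on the mean of the 6 libraries, and it was 0.11 for Mfap4, 0.11 for H2-Ab1 and 0.15 for Slc26a9. H2-Ab1, an MHC class II gene of antigen-presenting cells, had 5.01 to 7.58 FPKM among wild-type mice and knockout replicate 1, and 11.2 and 16.8 FPKM in knockout replicates 2 and 3. The genes most like Stat3 were Man1c1 (0.06), Mfsd7b (0.08) and Tmem180 (0.08). These matches over 6 libraries are given as a description.

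Cebpd (chr16:15887286-15891031, plus strand) encodes C/EBP delta, a STAT3 target that promotes cell death in involution. It had 126, 72.7 and 82.4 FPKM in wild-type mice (replicates 1 to 3) and 72.1, 91.4 and 90.2 FPKM in knockout mice (replicates 1 to 3). Wild-type replicate 1 was the high library, and the other 5 lay within 72.1 to 91.4 FPKM. As a log2 difference, knockout minus wild type was -0.11 (SE 0.30, 95% interval -0.78 to 0.55, adjusted p = 0.874 with limma). It turned to 0.12 without wild-type replicate 1 and to 0.16 after rescaling, when knockout replicate 3 became the highest library. The annotated exons of Cebpd overlap those of Spidr on the opposite strand.

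Across 20 listed STAT3 targets, which include Stat3, Socs3, Cebpd and Bcl2l1, 20 were tested and 0 passed in either direction. As deposited, 13 had a fold change above 0, and 15 lay above the median of all genes. Their median was 0.04, beside -0.21 over all genes, and after rescaling it was 0.31, beside 0.01. The part of immediate early genes in this list, such as Fos, was not tested. Fos, an immediate early gene, had the largest fold change of the list, with 19.1, 59.7 and 51.3 FPKM among wild-type mice and 76.1, 44.0 and 189.9 FPKM among knockout mice (adjusted p = 0.768, limma). Knockout replicate 3 was the highest library, as for Socs3, but knockout replicate 2 lay below wild-type replicates 2 and 3. Cebpb, which encodes C/EBP beta, pointed the other way, with 104, 154 and 120.2 FPKM among wild-type mice and 97.1, 86.3 and 93.6 FPKM among knockout mice. These groups did not overlap, but the gene did not pass (log2 fold change -0.43, adjusted p = 0.768, limma), and it was -0.15 after rescaling. Lcn2, which encodes the iron-chelator carrier lipocalin-2, was the most abundant of the list, with 1947 ± 346 FPKM among wild-type mice and 1713 ± 723 FPKM among knockout mice (mean ± SD over 3 mice each).

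Of 6 listed inhibitors of STAT3 signalling, 5 were tested and 0 passed in either direction. Besides Socs3, the phosphatase gene Ptpn2 had 5.40 ± 0.123 FPKM among wild-type mice and 5.88 ± 0.241 FPKM among knockout mice (mean ± SD over 3 mice each), with groups that did not overlap and a log2 fold change of 0.11 (adjusted p = 0.832, limma). Pias3, which encodes an inhibitor of STAT3 binding to DNA, had 1.99 ± 1.20 FPKM and 1.44 ± 0.631 FPKM. Ptpn1, a phosphatase of JAK kinases, had 13.0 ± 2.01 FPKM and 13.0 ± 1.95 FPKM.

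Igfbp5 (chr1:72857932-72874884, minus strand) encodes a secreted protein that binds insulin-like growth factors and is known to build up strongly in involution. It was the most variable of the 10 genes, with a 7.52-fold range. The values were 118, 118 and 256 FPKM in wild-type mice (replicates 1 to 3) and 203, 142 and 34.0 FPKM in knockout mice (replicates 1 to 3). Wild-type replicate 3 and knockout replicate 1 were the high libraries, knockout replicate 3 was the low one, and the knockout range took in 2 of the 3 wild-type values. Between genotypes the log2 fold change was -0.61 (SE 0.58, 95% interval -1.89 to 0.67, adjusted p = 0.768 with limma) and -0.34 after rescaling. Leaving out knockout replicate 3 turned it to 0.15, leaving out knockout replicate 1 moved it to -1.12, and leaving out wild-type replicate 3 moved it to -0.24.

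Of 7 listed IGF-binding protein genes, 6 were tested and 0 passed in either direction, with a median log2 fold change of -0.23. Igfbp2 had other high libraries than Igfbp5, with 51.3, 49.6 and 11.4 FPKM among wild-type mice and 7.75, 83.7 and 15.2 FPKM among knockout mice. Wild-type replicate 3 and knockout replicate 1, the highest for Igfbp5, were the lowest for Igfbp2, while knockout replicate 3 was low for both. Igfbp7 had 61.2 ± 23.6 FPKM among wild-type mice and 58.6 ± 12.7 FPKM among knockout mice, and Igfbp3 had 10.7 ± 3.74 FPKM and 8.34 ± 4.54 FPKM (mean ± SD over 3 mice each).

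Of 20 listed genes of early involution, among them Igfbp5, Lif, Cebpd and Osmr, 18 were tested and 0 passed in either direction. Those above and below the median of all genes numbered 9 each, and the list median of -0.22 lay beside -0.21 over all genes. Cd14, a co-receptor for bacterial lipopolysaccharide, had 517, 421 and 399.8 FPKM among wild-type mice and 355, 302 and 171 FPKM among knockout mice. All knockout values lay below all wild-type values, but the gene did not pass (log2 fold change -0.75, adjusted p = 0.768, limma), and it was -0.47 after rescaling. Saa3, an acute phase gene, had 14.4 ± 7.19 FPKM and 21.4 ± 6.71 FPKM (mean ± SD over 3 mice each; adjusted p = 0.768, limma).

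**Figure D3:**
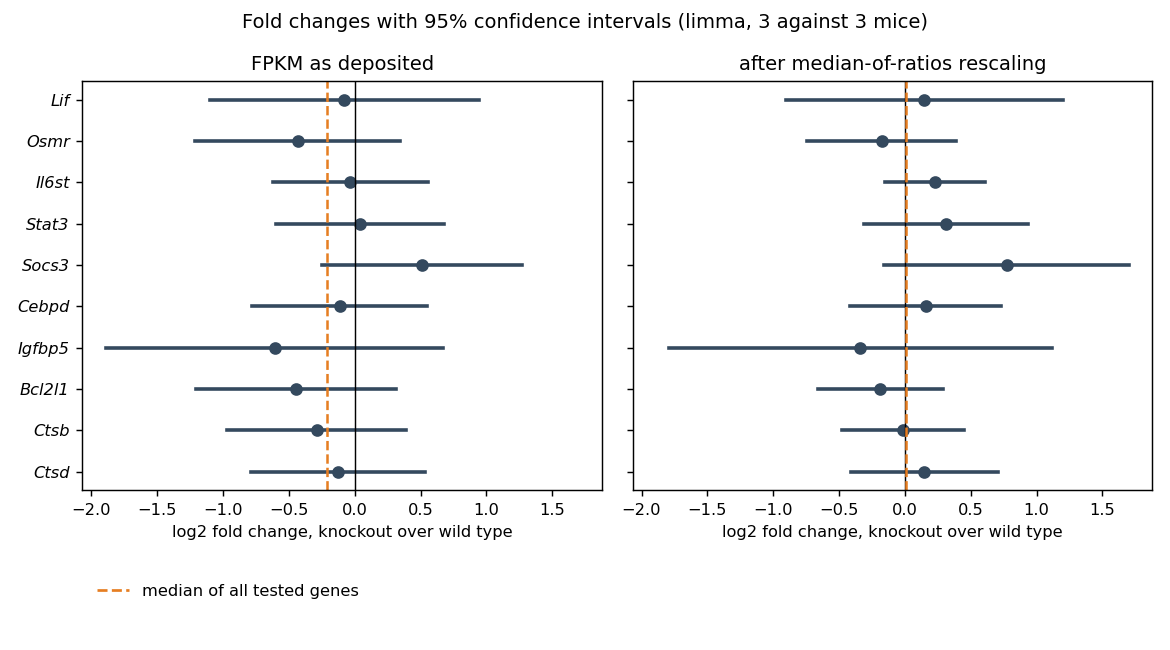
Log2 fold change (knockout over wild type, horizontal axis) of the 10 genes with 95% confidence intervals from limma, for FPKM as deposited (left) and after median-of-ratios rescaling (right); the dashed line is the median of all genes tested, -0.21 and 0.01. Every interval includes 0 on both scales, and 8 of the 10 points lie below 0 on the left against 4 on the right.

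Bcl2l1 (chr2:152780668-152831728, minus strand) encodes BCL-XL, which protects alveolar cells from death. Its level was 31.6, 24.3 and 17.5 FPKM in wild-type mice (replicates 1 to 3) and 17.8, 26.4 and 10.7 FPKM in knockout mice (replicates 1 to 3). Knockout replicate 3 was the lowest and wild-type replicate 1 the highest, as for most genes tested in each case. Knockout over wild type, the log2 difference was -0.45 (SE 0.35, 95% interval -1.21 to 0.31, adjusted p = 0.768 with limma), and it was -0.19 after rescaling. It was -0.13 without knockout replicate 3, -0.25 once wild-type replicate 1 was left out and -0.74 once knockout replicate 2 was.

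Other members of the BCL2 family act with or against BCL-XL. Of 4 listed anti-apoptotic genes, 3 were tested, and of 10 listed pro-apoptotic genes, 10 were tested, and 0 passed in either direction. Mcl1, the most abundant of the anti-apoptotic genes, had 89.5 ± 13.9 FPKM among wild-type mice and 74.8 ± 19.3 FPKM among knockout mice, and Bcl2l2 had 6.68 ± 1.47 FPKM and 6.70 ± 0.865 FPKM (mean ± SD over 3 mice each). The fold changes of the pro-apoptotic genes lay below 0 for 10 of 10, with a median of -0.30 beside -0.21 over all genes and of -0.09 beside 0.01 after rescaling. Bak1, which opens the mitochondrial membrane, had 20.5 ± 6.78 FPKM and 13.3 ± 7.40 FPKM, and its partner Bax had 14.4 ± 5.49 FPKM and 9.86 ± 3.00 FPKM (adjusted p = 0.768 for both, limma). The ratio of Bcl2l1 to Bax within a library was steadier than either gene, at 1.56 to 2.13 over the 6 libraries, with 1.75 ± 0.162 in wild type and 1.81 ± 0.279 in the knockout (exact permutation p = 0.8, two-sided).

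Ctsb (chr14:63122462-63145923, plus strand) encodes cathepsin B, a cysteine protease of the lysosome whose release takes part in cell death during involution. The wild-type libraries agreed closely, with 255, 252 and 236 FPKM, and the knockout libraries had 214, 257 and 151 FPKM. Knockout replicate 3 was the low library, and knockout replicate 2 was slightly above all wild-type libraries. As a log2 difference, knockout minus wild type was -0.29 (SE 0.31, 95% interval -0.97 to 0.39, adjusted p = 0.768 with limma). It shrank to -0.02 after rescaling, when the 6 libraries lay between 192 and 256, and to -0.08 without knockout replicate 3. Without knockout replicate 2 it was -0.46, with groups that no longer overlapped (32.2% of all genes then). Exons annotated to Fdft1 overlap Ctsb on the opposite strand.

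Ctsd (chr7:142375911-142388038, minus strand) encodes cathepsin D, an aspartic protease. As deposited, it was the most abundant and the steadiest of the 10 genes, with a 1.35-fold range. It had 454, 368 and 364 FPKM in wild-type mice (replicates 1 to 3) and 408, 336 and 340.4 FPKM in knockout mice (replicates 1 to 3). Both lower knockout values fell under all wild-type values by a small margin, while knockout replicate 1 was second of the 6. The means were 395 ± 51.0 FPKM and 362 ± 40.6 FPKM (mean ± SD over 3 mice each), a log2 fold change of -0.13 (SE 0.30, 95% confidence interval -0.78 to 0.53, adjusted p = 0.859 with limma). After rescaling it was 0.15, and knockout replicate 3 was then the highest library at 467. The rescaled values of Ctsd ran from 309 to 467, so Ctsd was then less steady than Ctsb, at 192 to 256. The ratio of Ctsb to Ctsd was 0.562, 0.684 and 0.647 in wild type and 0.523, 0.763 and 0.443 in the knockout (exact permutation p = 0.6, two-sided). The predicted gene Gm49369 overlaps exons of Ctsd on the same strand in the annotation used here.

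The wider set of lysosomal genes gave the same picture of overlap between genotypes. Of 12 listed lysosomal proteases, 12 were tested and 0 passed in either direction, with a median log2 fold change of -0.16. Ctsl, which encodes cathepsin L, had 182, 159.7 and 162 FPKM among wild-type mice and 127, 144 and 70.6 FPKM among knockout mice. All knockout values lay below all wild-type values without passing (log2 fold change -0.62, adjusted p = 0.768, limma), and the difference was -0.35 after rescaling. Ctss, the cathepsin of antigen-presenting cells, went the other way at a low level, with 2.06, 3.06 and 2.51 FPKM among wild-type mice and 1.86, 5.48 and 8.90 FPKM among knockout mice (adjusted p = 0.768, limma). Its high libraries were knockout replicates 2 and 3, as for Socs3 and for Lyz2 among the macrophage markers, whereas Cd68 was lowest in knockout replicate 3.

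Of 17 listed genes of the lysosomal membrane and other hydrolases, 17 were tested and 0 passed in either direction, with a median log2 fold change of -0.16. Psap, which encodes the precursor of the saposins, was the most abundant, with 273 ± 15.0 FPKM among wild-type mice and 254 ± 68.1 FPKM among knockout mice. Cd63, a lysosomal and exosomal membrane protein gene, had 30.3 ± 7.14 FPKM and 18.5 ± 10.3 FPKM, and the cholesterol transporter gene Npc1 had 14.0 ± 3.24 FPKM and 9.50 ± 4.14 FPKM (mean ± SD over 3 mice each; adjusted p = 0.768 for both, limma). Knockout replicate 3 had the lowest value for 12 of the 17. Among cathepsin inhibitors, 2 of 4 listed were tested: Cst3, which encodes cystatin C, had 71.2 ± 11.9 FPKM and 80.7 ± 8.33 FPKM, and Cstb, which encodes cystatin B, had 166 ± 69.9 FPKM and 105 ± 55.8 FPKM (adjusted p = 0.792 and 0.768, limma).

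**Figure D4:**
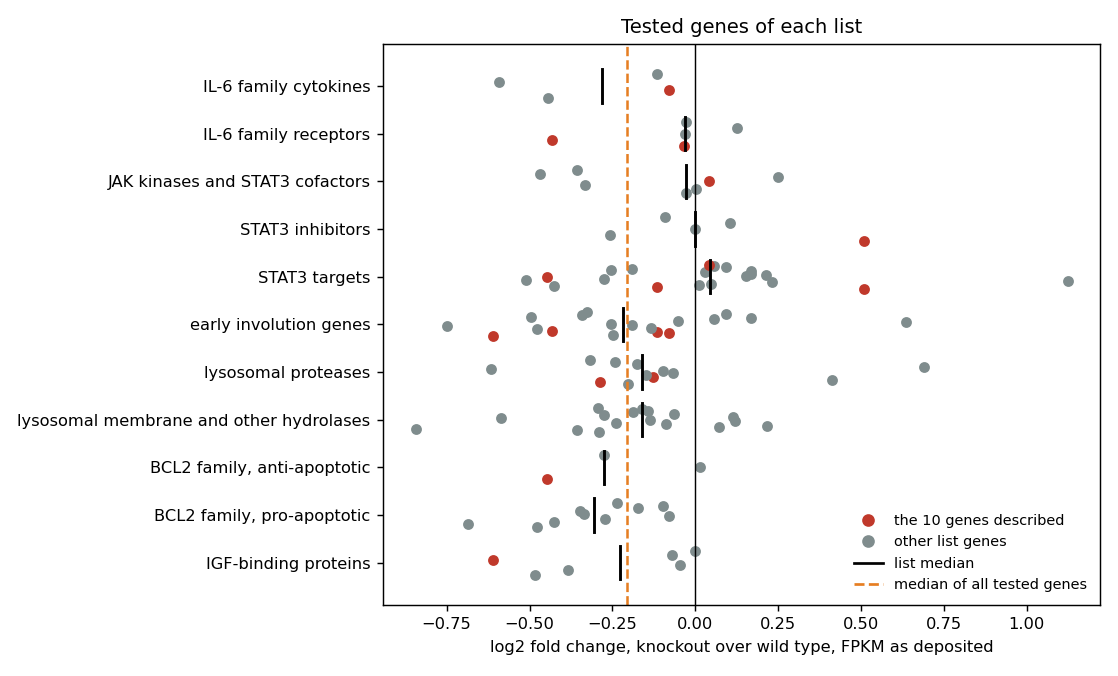
Log2 fold change (knockout over wild type, FPKM as deposited, horizontal axis) of every tested gene in 11 lists of the pathway, with the 10 genes in red, other genes in grey, a black bar at each list median and a dashed line at the median of all genes tested (-0.21). List medians run from -0.30 for pro-apoptotic BCL2 family genes to 0.04 for STAT3 targets, and 0 genes plotted passed an adjusted p of 0.05.

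Within-library ratios, in which a scaling factor shared by all genes of a library cancels, overlapped between the genotypes as well. Such a ratio can still vary along with the milk share. Stat3 to Stat5a was 10.7 in wild-type replicate 1, with the lowest milk share, and 3.54 in knockout replicate 3, with the highest. The 8 ratios compared were chosen after the values were seen: Socs3 to Stat3, Osmr to Il6st, Osmr to Lifr, Il6ra to Il6st, Ctsb to Ctsd, Bcl2l1 to Mcl1, Bcl2l1 to Bax and Stat3 to Stat5a. The smallest exact permutation p was 0.3, for Osmr to Il6st and for Stat3 to Stat5a, and the smallest value adjusted over the 8 was 0.8. With 3 against 3 mice this test can give no p below 0.1, so it could not have called any ratio at 0.05. A p that misses the threshold does not show equal levels. For the 10 genes themselves the 95% intervals of the log2 difference were narrowest for Il6st (-0.62 to 0.55) and widest for Igfbp5 (-1.89 to 0.67), and changes within each interval are compatible with the data.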

How the data were processed

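RNA-seq of 6 libraries was used, 3 wild type and 3 Nmi knockout. The authors deposited FPKM values in 1 table with libraries as rows. Cufflinks, TopHat, SAMtools and FastQC appear in the submitters' processing notes, with the builds GRCm38 and mm10. The sources used here give no versions, annotation or strand settings. Read totals cannot be had from FPKM, so the absolute depth is unknown. Relative depth, from genes between 0.001 and 0.1 FPKM, was 0.973 to 1.13 times that of wild-type replicate 1.

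The 9767 genes that reached 1 FPKM in 3 or more libraries were tested on log2(FPKM + 1) with limma 3.58.1 in R 4.3.3 (empirical Bayes with intensity trend), two-sided, with Benjamini-Hochberg adjustment and a threshold of 0.05. Fold changes are on that scale and understate those of low genes. The replicates are separate mice by their labels. The tests were checked on simulated data in which genes varied independently, without the library-wide shifts seen here. The members and lists were chosen with earlier results of these data known. From each pathway list the text names the 2 other genes with the smallest p and the most abundant one, plus the 3 genes most like Stat3 and Socs3. Lifr, Osm and macrophage markers were singled out after their values were seen. Alternatives were other pseudocounts (0.1 and 0.5), filters, scalings, library weights and leaving out libraries. The gene-by-gene weights, the 2 against 2 comparison and the ratios were chosen after seeing the data. Exon overlaps are from GENCODE mouse release M21 on GRCm38, which held 97.2% of the tested symbols.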

Additional observations from a re-analysis of the deposited data

How the results depend on the processing

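Of the alternatives, 1 called any of the 10 genes at an adjusted p of 0.05 (limma). That was the planned fit with library quality weights (default estimate), which called 7740 of 9767 genes and 8 of the 10 genes, 2 higher and 6 lower than wild type. Its estimate stopped before it converged, and it gave wild-type replicate 2 and knockout replicate 1 together nearly all of the weight (40.8% and 58.1%). There Socs3 turned to -0.50, Igfbp5 to 0.76 and Ctsd to 0.15. After this was seen, weights were estimated gene by gene instead: these called 2 genes (Nmi and Cdk5rap1, lower) and 0 of the 10, with Socs3 at -0.14, Cebpd at 0.0068, Igfbp5 at 0.34 and Ctsd at 0.059. The results thus depend on how libraries are weighted. The 2 against 2 comparison without wild-type replicate 1 and knockout replicate 3, also chosen after seeing the data, called 1 gene (Gm7367, higher). All other alternatives called 0 genes.

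The number of the 10 with groups that did not overlap was 0 to 3 when 1 library was left out (2 without knockout replicate 1 and 3 without knockout replicate 2, where 11.8% and 32.2% of all genes did not overlap), and 1 (Stat3) in the 2 against 2 comparison, where the share of all genes was 15.2%. At an unadjusted p under 0.05 all genes numbered 130 as reported, 7852 with default weights, 1142 with gene-by-gene weights, 326 without a filter, 51 with a filter of 5 FPKM, and 25 to 1187 when 1 library was left out (leaving out wild-type replicate 1 gave 25, wild-type replicate 3 gave 632, knockout replicate 3 gave 59 and knockout replicate 2 gave 1187). Some fold changes turned positive on other scales, in the order median of ratios, quantile normalization and scaling to the FPKM sum outside milk genes: Cebpd at 0.16, 0.049 and 0.089, Lif at 0.15, 0.14 and 0.094, Il6st at 0.23, 0.20 and 0.16, and Ctsd at 0.15, 0.16 and 0.078. In the 2 against 2 comparison Cebpd was 0.067, Lif 0.39, Osmr 0.081, Il6st 0.13, Ctsd 0.018 and Bcl2l1 0.071. Leaving out 1 library at a time gave -0.11 to 0.21 for Stat3, -0.28 to 0.12 for Cebpd, -0.65 to 0.37 for Lif, -0.23 to 0.094 for Il6st and -1.12 to 0.15 for Igfbp5. The cause was not tested. Ctsb kept its direction in all 16 alternatives, while its call changed with the default weights. Lif was not tested under the filter of 5 FPKM. No paired analysis was possible because the mouse numbers in the labels are not shared between genotypes. Depth is unknown, and the number of mice limits the precision.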
